A study of Saccharomyces cerevisiae with 4 samples.

Results

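The genes described here encode the proteins that work with the deacetylases Sir2 and Hst1 in Saccharomyces cerevisiae. Their choice was by name, with earlier results of these data known. They were 10 of the 6690 open reading frames listed in each library: SIR1 (YKR101W), SIR3 (YLR442C), SIR4 (YDR227W), SUM1 (YDR310C), RFM1 (YOR279C), ORC1 (YML065W), RAP1 (YNL216W), ABF1 (YKL112W), NET1 (YJL076W) and CDC14 (YFR028C). All 10 were found and all 10 were tested. RNA-seq compared a wild-type strain (LRY3093) with a strain lacking SIR2 and HST1 (LRY3099), with 2 libraries per genotype. Both strains were MAT alpha, carried the alleles can1-100, his3-11, leu2-3,112, trp1-1 and ura3-1 with a deletion of LYS2, and had ura3 in place of HMR (written hmr::ura3 for the wild type and hmrD::ura3 for the deletion strain). In the deletion strain TRP1 replaced SIR2 and KanMX replaced HST1, and the wild-type label alone also lists GAL, so effects of the markers cannot be told apart from those of the deletions. Cells grew exponentially in YPD, a rich glucose medium, at 30 °C. Each genotype is a single strain, and the series calls its libraries technical replicates, so every p-value here measures the spread between these libraries and not between cultures or strains.

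In yeast silencing, Sir2 acts in a complex with Sir3 and Sir4 that coats chromatin at the silent mating-type loci and the telomeres. The origin recognition complex with its subunit Orc1, and the DNA-binding factors Rap1 and Abf1, bind the silencers, and Sir1 helps to recruit the complex there. In the nucleolus Sir2 works instead with Net1 and the phosphatase Cdc14 in the RENT complex, which acts at the ribosomal DNA and holds Cdc14 until late mitosis. Hst1, the paralog of Sir2, is tethered by Rfm1 to Sum1, which binds DNA and represses middle sporulation genes during vegetative growth.

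The targeted genes checked the labels. In FPKM, fragments scaled by gene length and library size so that levels are per length, SIR2 had 24.3 and 23.8 in wild type and HST1 58.2 and 57.8. Both genes were listed at 0 in each deletion library. The alpha mating type was visible in both strains: the alpha-factor gene MF(ALPHA)1 averaged 2770 and 2364 FPKM and the a-factor receptor gene STE3 averaged 362 and 316, whereas STE2, BAR1 and STE6, which a cells express, averaged between 4.82 and 8.43 in either genotype. Of the 6 mating-type genes checked, SAG1, the alpha-agglutinin gene, passed the test used below, falling from 304 and 335 to 158 and 171 FPKM (limma log2 difference -0.95, adjusted p = 0.00359). At an unadjusted p under 0.05 (limma), 1 of the 6 was higher and 3 were lower, against 16.1% and 14.1% of all tested genes. Mean levels of MF(ALPHA)1, STE3 and SAG1 were lower in the deletion strain, and those of STE2, BAR1 and STE6 higher. BAR1 went from 4.82 to 7.18 FPKM (limma adjusted p = 0.0552). Median FPKM per library lay between 36.9 and 37.3, and the files give no read totals, so depth is unknown.

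ABF1 was the 1 gene of the 10 that passed the test. Its transcript rose 2.14-fold in the strain without SIR2 and HST1, while the genes of the SIR complex, the Sum1 complex and RENT did not pass. With limma on log2(FPKM + 1) and a Benjamini-Hochberg adjusted p under 0.05, 1 member rose and 0 fell, and at an unadjusted p under 0.05 the counts were 3 and 1. Over all 6370 genes tested 9.54% passed, 6.75% higher and 2.79% lower in the deletion strain. At an unadjusted p under 0.05 the share of all genes was 30.2% (16.1% higher and 14.1% lower), which is the background for each such count below. After quantile normalization 54.7% of all calls were higher, against 70.7% here. The median log2 difference was 0.05 over the 10 members and -0.01 over all tested genes, and the median absolute difference was 0.18 against 0.13. Libraries of the genotypes did not overlap for 6 of the 10 members, 4 higher and 2 lower in the deletion strain, which is close to the 62.3% of all tested genes (30.5% higher and 31.7% lower).

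**Figure D1:**
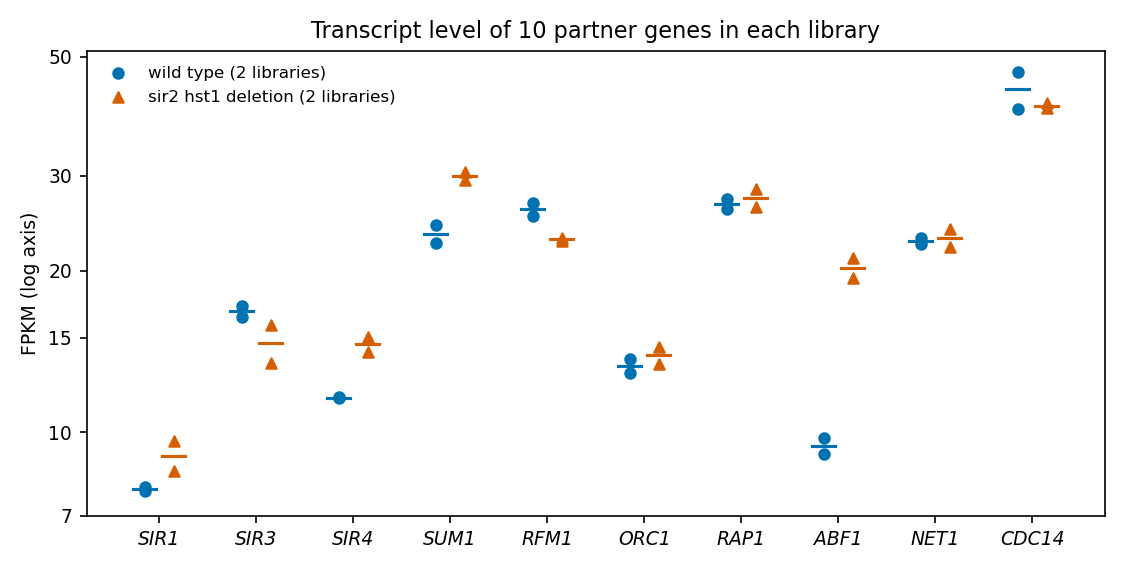
FPKM (log axis) of the 10 partner genes in each library, with circles for the 2 wild-type libraries, triangles for the 2 deletion libraries and a line at each mean. ABF1 stands at 9.11 and 9.77 FPKM in wild type, against 21.1 and 19.3 without SIR2 and HST1, while the other 9 genes stay closer together.

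ABF1 encodes an essential DNA-binding factor that binds silencers and origins of replication and activates many other genes. It gave 9.11 and 9.77 FPKM in the wild-type pair of libraries, against 21.1 and 19.3 in the deletion pair. Both deletion libraries lay far above both wild-type libraries, and replicates differed by 7.03% of their mean in wild type and by 8.94% without SIR2 and HST1. The mean went from 9.44 ± 0.47 to 20.2 ± 1.28 FPKM (mean ± SD, n = 2), a log2 difference of 1.02 (SE 0.08, 95% interval 0.80 to 1.25, limma adjusted p = 0.00405). On the log2 scale a larger or equal rise that also passed was found in 208 genes, ABF1 included, so its change lay within a broad set of rises. By size of change in either direction 4.16% of tested genes equalled or exceeded it. Without deletion replicate 1 or 2 the adjusted p was 0.0459 or 0.0384.

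The gene of another silencer-binding factor, RAP1, did not pass. RAP1, encoding an essential activator and telomere-binding protein, gave 26.0 and 27.2 FPKM in the wild-type pair of libraries, against 26.3 and 28.4 in the deletion pair, and the genotypes overlapped. Its log2 difference was 0.04 (95% interval -0.14 to 0.22, adjusted p = 0.752). The ratio of RAP1 to ABF1 transcripts was 2.86 and 2.78 in the wild-type libraries, against 1.24 and 1.47 in the deletion pair. Other general regulatory factors were REB1, which averaged 24.0 and 26.5 FPKM in wild type and deletion, CBF1 with 42.6 and 40.7, TBF1 with 21.5 and 21.0 and MCM1 with 112 and 98.0. None of these 4 passed (limma; 0 and 1 were higher and lower at an unadjusted p below 0.05), and their median log2 difference was -0.05.

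The promoter of ABF1 is shown because Abf1 is known to regulate its own gene. It is the R64 reference sequence on the plus strand of chrXI:226320-226619, from 250 bases before the start codon to 50 from it. The reference strain is not the strain sequenced here, and the build of the files is not given in the sources used here. Capitals mark matches to a loose Abf1 pattern, TC and ACG separated by any 7 bases, on either strand.
ABF1: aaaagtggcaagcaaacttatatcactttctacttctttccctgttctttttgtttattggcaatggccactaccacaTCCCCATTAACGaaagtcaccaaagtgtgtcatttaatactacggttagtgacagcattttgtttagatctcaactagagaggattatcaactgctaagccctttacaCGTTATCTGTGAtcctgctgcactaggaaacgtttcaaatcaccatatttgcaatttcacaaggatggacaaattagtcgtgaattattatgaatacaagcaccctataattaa
The window held 2 matches, at bases -172 to -161 on the plus strand and -64 to -53 on the minus strand, where the A of the start codon is base 0. The pattern is common, occurring in 30.1% of the 6001 promoter windows of the same length, and it was found in 5 of the 10 members (SIR4, RFM1, ABF1, NET1 and CDC14), of which 1, ABF1, passed the test. No member's window held the Rap1 pattern, CACCC and ACA separated by any 2 bases (1.03% of all windows), or the middle sporulation element bound by Sum1, as GNCACAAA (4.32%) or GNCGCAAA (3.15%), on either strand.

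Neither gene next to ABF1 in R64 passed. RAD27, a flap endonuclease gene transcribed away from ABF1 on its upstream side, averaged 52.4 and 55.1 FPKM in wild type and deletion (adjusted p = 0.579), and KTI12 on the downstream side 96.4 and 103 (adjusted p = 0.358). The files also list YKL111C, a name next in number to ABF1 that R64 lacks, so that its position was not checked. YKL111C had 19.4 and 24.1 FPKM in wild type, against 32.1 and 39.7 in the deletion libraries, and did not pass (log2 difference 0.70, adjusted p = 0.0574). It did pass with the replicate block (adjusted p = 0.0127), with a robust fit (0.0491) and with the second wild-type library left out (0.0320). Whether it shares reads with ABF1 was not tested. Among 1656 named genes of a mean level within 2-fold of ABF1, the 3 with the nearest profile over the 4 libraries were NQM1 (distance 0.13 on the centred log2 scale), GSC2 (0.16) and TGL2 (0.18). They rose 2.38-, 2.12- and 1.88-fold, and with 4 libraries such likeness says little beyond a like rise.

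**Figure D2:**
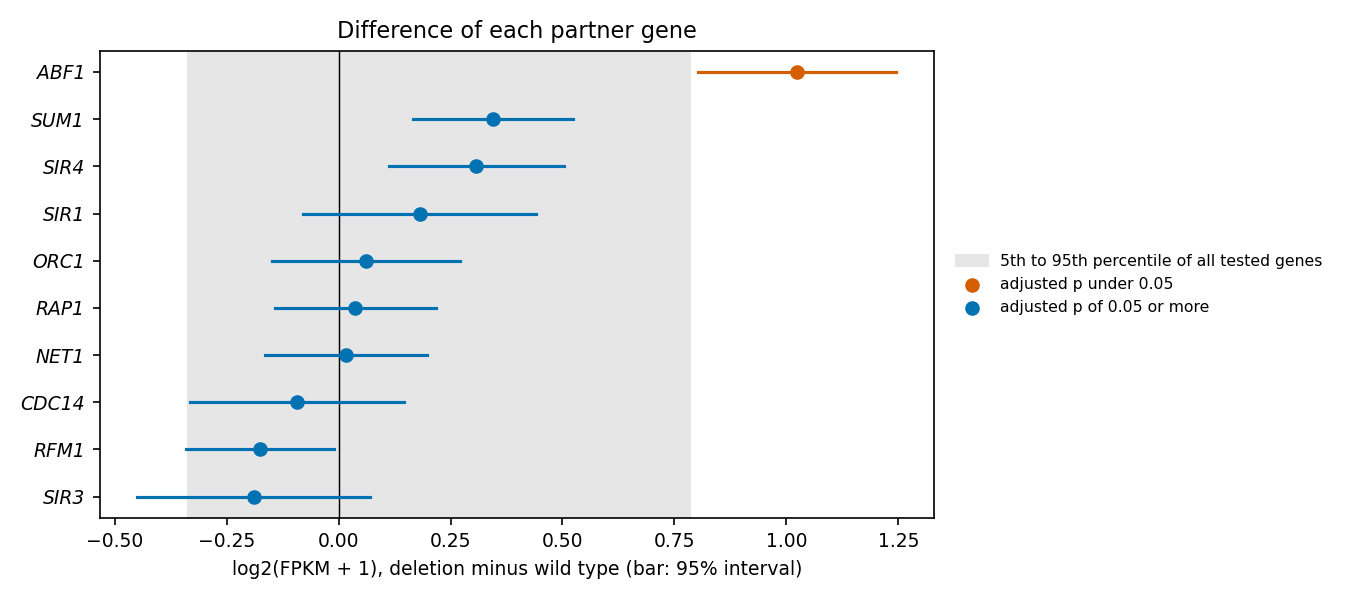
Difference in log2(FPKM + 1) between deletion and wild type for each partner gene (point) with its 95% interval (bar); the grey band spans the 5th to 95th percentile of all tested genes, -0.34 to 0.78. ABF1 lies above the band at 1.02, and the points of the other 9 genes, from -0.19 to 0.34, lie inside it.

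The 3 genes that act in silencing with Sir2, SIR1, SIR3 and SIR4, were all expressed in both strains and none passed the test. SIR4 encodes the scaffold of the complex, to which Sir2 binds. It gave 11.6 and 11.6 FPKM in the wild-type pair of libraries, against 15.1 and 14.1 in the deletion pair. Both deletion libraries were higher, with means of 11.6 ± 0.04 and 14.6 ± 0.65 FPKM, 1.26-fold apart. The log2 difference was 0.31 (SE 0.07, 95% interval 0.11 to 0.50), with an unadjusted p of 0.0105 and an adjusted p of 0.0749. Under the 14 other settings its log2 difference ran from 0.20 to 0.35, lowest after quantile normalization (limma adjusted p = 0.138). SIR4 passed under 1 of them, names found in R64 only (adjusted p = 0.0499), and missed under the other 13.

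SIR3 encodes the subunit that binds nucleosomes, and arose as a duplicate of ORC1. It gave 17.2 and 16.4 FPKM in the wild-type pair of libraries, against 15.8 and 13.5 in the deletion pair. Both deletion libraries were lower, but they differed from each other by 16.1% of their mean. The log2 difference was -0.19 (95% interval -0.45 to 0.07, adjusted p = 0.267). SIR1, which recruits the complex through its contact with Orc1 and Sir4, was the lowest of the 10 genes in both strains. It gave 7.92 and 7.79 FPKM in the wild-type pair of libraries, against 9.63 and 8.48 in the deletion pair, a log2 difference of 0.18 (95% interval -0.08 to 0.44, adjusted p = 0.288).

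By number of genes, SIR1 and SIR3 are the members nearest to a chromosome end, and whether this bears on their levels was not tested. In R64 5 protein-coding genes lie between SIR1 and the nearer end of its chromosome and 21 between SIR3 and its end, against 32 or more for the other members. Beside SIR1, the flocculin gene FLO10 on the side of the end gave 3.06 and 2.98 FPKM in the wild-type pair of libraries, against 4.46 and 4.36 in the deletion pair (adjusted p = 0.0992). FLO10 passed with no filter on low genes (0.0167) and without the mean-variance trend (0.0231), and its sign turned after quantile normalization (log2 difference -0.06, adjusted p = 0.780). SKG1 on the other side averaged 83.8 and 85.9 (adjusted p = 0.720). Beside SIR3, ECM7 averaged 53.9 and 47.0 (adjusted p = 0.201) and the ribosomal protein gene RPS1A 4087 and 4215 (adjusted p = 0.575).

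The balance of SIR3 to SIR4 transcripts was lower in both deletion libraries. Their ratio was 1.48 and 1.42 in the wild-type libraries and 1.05 and 0.953 in the deletion libraries, close to equal levels without SIR2 and HST1. The log2 ratio was lower by 0.53 on average, while replicates differed by 0.06 in wild type and by 0.14 without SIR2 and HST1. Of SIR1 to SIR4 the ratio was 0.681 and 0.673 in wild type against 0.639 and 0.600. A two-sided exact permutation test over 4 libraries cannot give a p below 0.333. In this exact test 5 of the 6 ratios compared gave that value (adjusted p = 0.4). The exception was NET1 to CDC14 (exact p = 0.667). With 4 libraries no ratio could pass, whatever its values. A value of 0.333 means only that the genotypes did not overlap, which for single genes held in 62.3% of those tested.

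**Figure D3:**
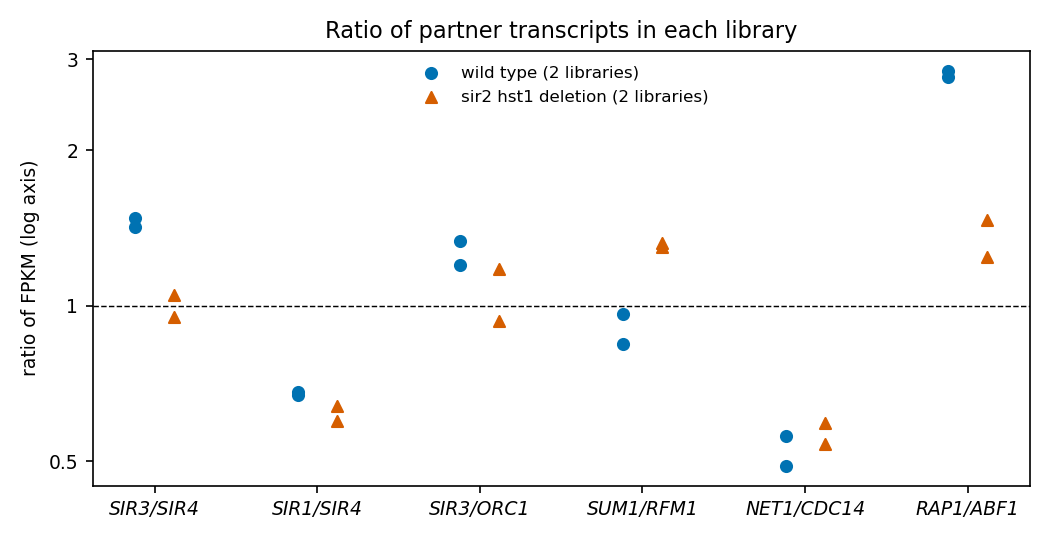
Ratio of FPKM (log axis) for 6 pairs of partner genes in each library, with circles for wild type and triangles for the deletion strain; the dashed line marks equal levels. SIR3/SIR4 goes from 1.48 and 1.42 to 1.05 and 0.953, and SUM1/RFM1 from 0.843 and 0.963 to 1.30 and 1.32, so that the triangles for SUM1/RFM1 lie above the line and its circles below.

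Of the Sum1 complex that remains without Hst1, SUM1 was higher and RFM1 lower in the deletion libraries, and neither passed. SUM1, which encodes the DNA-binding repressor, gave 22.5 and 24.3 FPKM in the wild-type pair of libraries, against 29.5 and 30.5 in the deletion pair. The genotypes were separate, with means of 23.4 ± 1.29 and 30.0 ± 0.69 FPKM. The log2 difference was 0.34 (SE 0.07, 95% interval 0.17 to 0.52), and its adjusted p of 0.0501 lay at the threshold. It passed under 4 of the 14 other settings, among them names found in R64 only (adjusted p = 0.0314) and a robust fit (0.0414), and missed under the other 10, up to 0.213 without wild-type replicate 1.

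RFM1, which encodes the protein that bridges Sum1 and Hst1, gave 26.7 and 25.3 FPKM in the wild-type pair of libraries, against 22.7 and 23.0 in the deletion pair. Both deletion libraries were lower, with a log2 difference of -0.18 (95% interval -0.34 to -0.01, unadjusted p = 0.0409, adjusted p = 0.149). The ratio of SUM1 to RFM1 was 0.843 and 0.963 in wild type and 1.30 and 1.32 in the deletion libraries. Hst1 also belongs to the Set3 histone deacetylase complex, whose other genes are SET3, SNT1, HOS2, SIF2, HOS4 and CPR1. None of these 6 passed (limma; 1 and 0 were higher and lower at an unadjusted p below 0.05), and their median log2 difference was -0.07. SET3 averaged 14.3 and 12.4 FPKM in wild type and deletion, and HOS2, its deacetylase, 14.5 and 13.8.

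ORC1, which encodes the largest subunit of the origin recognition complex, did not pass. It gave 12.9 and 13.7 FPKM in the wild-type pair of libraries, against 13.4 and 14.4 in the deletion pair, and the genotypes overlapped. Its log2 difference was 0.06 (95% interval -0.15 to 0.27, adjusted p = 0.650). SIR3, its duplicate, stood at 1.34 and 1.20 times the ORC1 level in wild type and at 1.18 and 0.934 times in the deletion libraries. Of the other subunit genes ORC2 to ORC6 and the loader CDC6, 0 of 6 passed (limma; 1 and 0 were higher and lower at an unadjusted p below 0.05), with a median log2 difference of -0.08. ORC3 had the largest difference, from 14.8 to 18.8 FPKM (log2 difference 0.32, adjusted p = 0.0853).

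Beside ORC1, the divergently transcribed gene SMA2 rose strongly. SMA2, which acts in prospore membrane assembly during sporulation, went from 14.4 and 13.4 FPKM in wild type to 47.1 and 52.4 in the deletion libraries, a 3.58-fold rise (log2 difference 1.77, SE 0.08, limma adjusted p = 0.000628). ORC1 and SMA2 start 676 bases apart in R64. The stretch next to SMA2 is shown because it holds the 1 match to GNCACAAA in that interval. It is the plus strand of chrXIII:141534-141833 in R64, read toward ORC1, with the match in capitals.
SMA2 side: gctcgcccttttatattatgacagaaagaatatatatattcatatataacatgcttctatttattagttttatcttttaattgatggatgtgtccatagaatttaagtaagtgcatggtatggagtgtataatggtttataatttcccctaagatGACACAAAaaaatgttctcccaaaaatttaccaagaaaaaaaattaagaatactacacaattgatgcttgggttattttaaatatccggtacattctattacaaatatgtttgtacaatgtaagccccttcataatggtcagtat
The match, GACACAAA, lay 155 bases from the start codon of SMA2 and 513 bases from that of ORC1. It falls within the promoter window of SMA2, and 4.32% of the 6001 windows held this pattern. Whether the match bears on the rise was not tested. On the other side of ORC1, the mitotic exit gene TEM1 gave 27.1 and 33.5 FPKM in the wild-type pair of libraries, against 21.8 and 20.6 in the deletion pair, and did not pass (adjusted p = 0.0725, but 0.0226 with the first wild-type library left out).

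Over all members, 19 of 20 neighbouring genes in R64 were tested, and SMA2 was the 1 that rose. The 1 that fell was PPN2, a polyphosphatase gene next to RAP1, which went from 273 and 284 FPKM to 221 and 207 (log2 difference -0.38, SE 0.06, adjusted p = 0.0291). Of all tested genes 6.75% rose and 2.79% fell, so 1 call each way among 19 is close to the background. PPN2 lost its call with any 1 library left out (adjusted p 0.0584 to 0.168) and with the replicate block (0.0602). Next to SIR4, the adenylate kinase gene ADK1 averaged 1210 and 1061 FPKM and did not pass (adjusted p = 0.127). PCF11 on the other side averaged 18.0 and 19.4 (adjusted p = 0.343). Next to SUM1, GIC2 (adjusted p = 0.687) and TFB1 (0.342) did not pass, nor did HEM4 (0.208) and FSH3 (0.747) next to RFM1, IES2 (0.359) next to RAP1, or ECO1 (0.453) and PTR3 (0.340) next to CDC14.

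**Figure D4:**
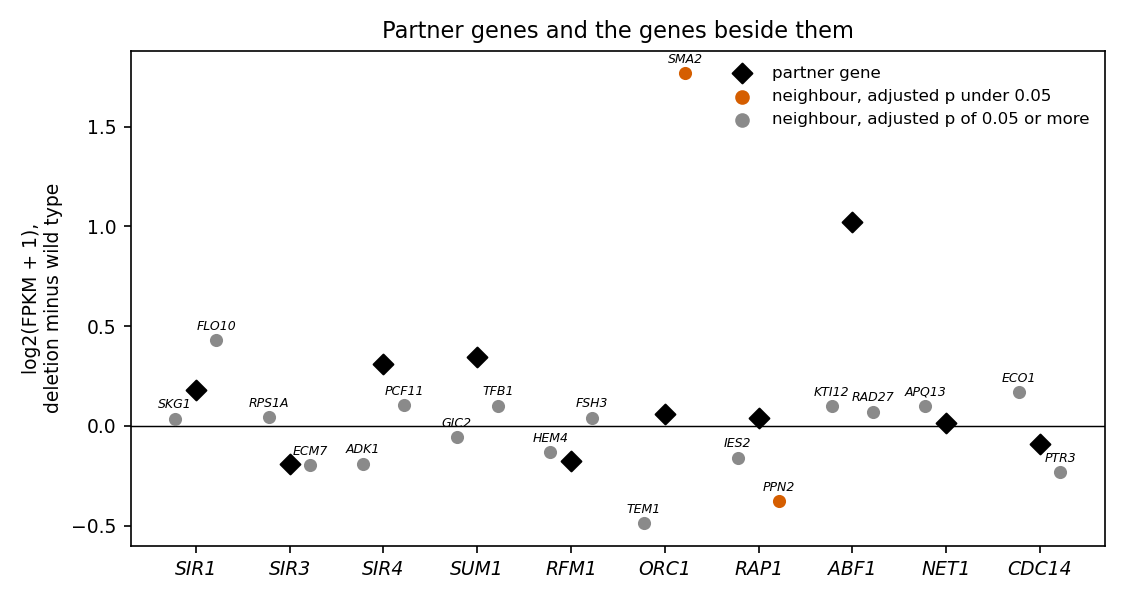
Difference in log2(FPKM + 1) between deletion and wild type for each partner gene (diamond) and the R64 genes beside it (circles, orange where the adjusted p was under 0.05). SMA2 beside ORC1 stands highest at 1.77, PPN2 beside RAP1 lies at -0.38, and both genes beside ABF1 lie near 0.1 while ABF1 is at 1.02.

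Neither gene of RENT passed, and the genotypes overlapped for both. NET1, which encodes the nucleolar anchor of Sir2 and Cdc14, gave 22.4 and 23.0 FPKM in the wild-type pair of libraries, against 22.1 and 23.9 in the deletion pair. The log2 difference of 0.02 was the smallest of the 10 (95% interval -0.16 to 0.20, adjusted p = 0.900). APQ13 overlaps NET1 on the opposite strand in R64, and as the use of strand is not given, their reads cannot be told apart. APQ13 averaged 23.8 and 25.6 FPKM.

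CDC14, the phosphatase that reverses mitotic phosphorylation, was the highest of the 10 genes in both strains. It gave 40.0 and 46.9 FPKM in the wild-type pair of libraries, against 40.9 and 40.2 in the deletion pair. The wild-type libraries differed by 15.8% of their mean, and both deletion libraries lay between them. The log2 difference was -0.09 (95% interval -0.33 to 0.15, adjusted p = 0.536). The ratio of NET1 to CDC14 was 0.560 and 0.490 in wild type and 0.540 and 0.593 in the deletion libraries, so these also overlapped. Of 8 other nucleolar ribosomal DNA genes, including FOB1, TOF2, the paralog of NET1, and CSM1, none passed (limma; 0 and 0 were higher and lower at an unadjusted p below 0.05). Their log2 differences lay between -0.05 and 0.12.

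In the pathways that release Cdc14 from Net1, the FEAR network and the mitotic exit network, 2 of 14 genes rose and 0 fell (limma). The shares over all tested genes were 6.75% and 2.79%. At an unadjusted p below 0.05 (limma), 4 of the 14 were higher and 3 lower, against 16.1% and 14.1% of all tested genes. BNS1, the paralog of the FEAR gene SPO12, gave 32.6 and 35.2 FPKM in the wild-type pair of libraries, against 64.9 and 51.4 in the deletion pair (log2 difference 0.75, SE 0.13, adjusted p = 0.0336). SLK19, a kinetochore and FEAR gene, went from 15.4 and 16.4 to 21.7 and 20.3 FPKM (log2 difference 0.38, SE 0.08, adjusted p = 0.0493). BNS1 missed the threshold when the first library of either genotype was left out and with no filter on low genes (adjusted p = 0.0940). SLK19 passed under only 4 of the 14 other settings. Its misses included any 1 library left out and the replicate block (adjusted p = 0.0861). SPO12 averaged 109 FPKM in both genotypes, and the polo kinase gene CDC5 averaged 22.1 and 27.0 (adjusted p = 0.0662). The list had a median log2 difference of 0.01. SIC1, CDH1 and SWI5, whose proteins are Cdc14 targets, averaged 50.5, 18.7 and 20.8 FPKM in wild type against 45.5, 17.0 and 21.0. Of these genes 0 of 3 passed (limma; 0 and 0 were higher and lower at an unadjusted p below 0.05). Transcript levels do not measure the activity of Cdc14.

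Wild-type levels placed the 10 genes between percentiles 11.2 and 51.8 of all tested genes. In wild type the order from the highest was CDC14, RAP1, RFM1, SUM1, NET1, SIR3, ORC1, SIR4, ABF1 and SIR1. Neighbours in that order had separate values except RAP1 and RFM1, and SUM1 and NET1, whose libraries overlapped. Without SIR2 and HST1 the order was CDC14, SUM1, RAP1, NET1, RFM1, ABF1, SIR3, SIR4, ORC1 and SIR1, with overlap between NET1 and RFM1, between SIR3 and SIR4, and between SIR4 and ORC1. ABF1 moved from the 9th to the 6th place and stood below ORC1 and SIR4 in wild type but above them in the deletion strain.

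No other gene of the silencing lists passed, and few targets of Rap1 did. Of 15 genes of silencing chromatin, among them the SAS acetyltransferase genes, DOT1 and the histone chaperone gene ASF1, 0 passed (limma; 1 and 0 were higher and lower at an unadjusted p below 0.05). Their log2 differences lay between -0.17 and 0.21, with a median of 0.05. Of 8 genes for proteins that act with Rap1, such as RIF1, RIF2, GCR1 and IFH1, 0 passed (0 and 1 higher and lower at an unadjusted p below 0.05), with a median of 0.06. All 16 glycolytic genes, a class that Rap1 activates, missed the threshold (0 and 0 higher and lower at an unadjusted p below 0.05), with a median of 0.02.

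Ribosomal protein genes are a major class of Rap1 targets, and 5 of them passed. Of 138 names matching RPL, RPS or RPP with a number, among which RPP1 encodes an RNase P subunit instead, 3 rose and 2 fell. At an unadjusted p below 0.05 (limma) 16 were higher and 13 lower. Among all tested genes 9.54% passed and 30.2% had an unadjusted p below 0.05, a larger share in each case. The risers were RPS22B (log2 difference 0.36, adjusted p = 0.0126), RPS9A (0.30, adjusted p = 0.0386) and RPL41A (0.15, adjusted p = 0.0431), and RPL15B (-0.35, adjusted p = 0.0334) and RPL8A (-0.23, adjusted p = 0.0488) fell. The median over the class was 0.03. Many of these genes have a near-identical copy, and how the authors' counting split their reads is not given, so single values are uncertain. None of the 5 kept its call with each library left out: RPS22B lost it without wild-type replicate 1 or 2 (adjusted p 0.0953 and 0.0796), and under the replicate block RPS22B alone passed.

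**Figure D5:**
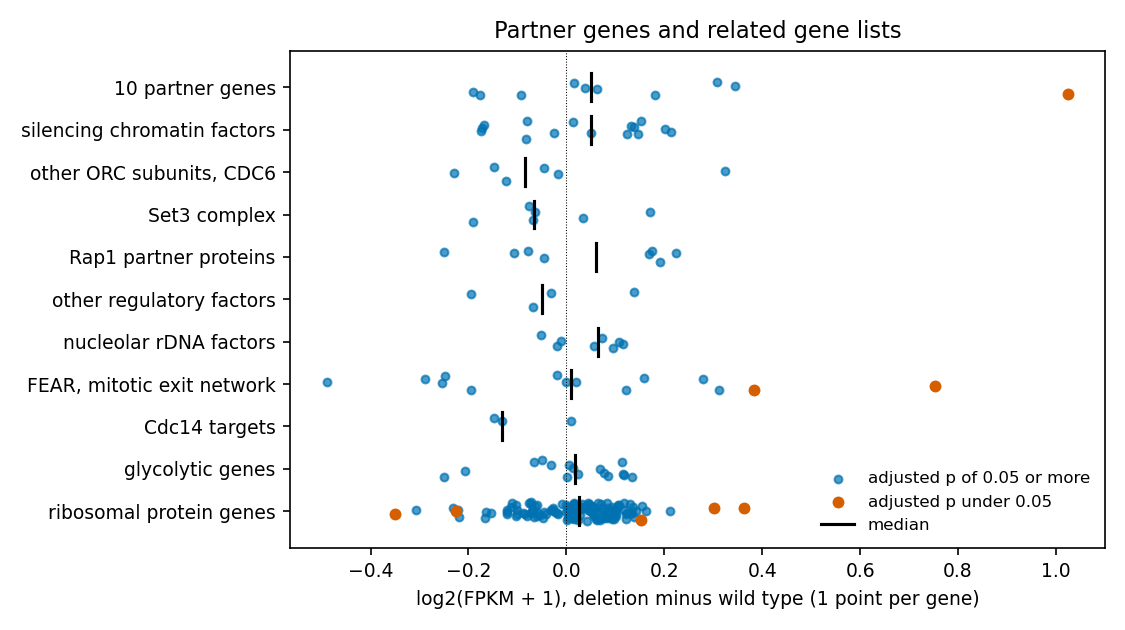
Difference in log2(FPKM + 1) between deletion and wild type for the 10 partner genes and 10 related lists, with 1 point per gene, orange where the adjusted p was under 0.05, and a black line at each median. ABF1 at 1.02 lies farthest right, and every list median lies between -0.13 and 0.06.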

How the data were processed

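The authors deposited 1 file of FPKM values per library, 4 in all, made with TopHat2 2.0.10 and Cuffnorm 2.2.1 per the submitters' processing notes. On build, annotation, strand use and the scaling between libraries, nothing is stated in the sources used here. Of 6690 names, 6007 matched a locus tag of R64 and took its symbol. The 6370 genes that reached 1 FPKM in 2 or more libraries were tested on log2(FPKM + 1). The tool was limma 3.58.1 (R 4.3.3), fitting genotype alone, with eBayes and a mean-variance trend, and p-values were adjusted by Benjamini-Hochberg over all 6370. The test was checked on simulated data, in which small changes were missed more often than large ones, so a gene that missed may still differ. Log2 differences on this scale understate changes of low genes, whereas folds are ratios of mean FPKM. Read totals are unknown, so no counting intervals are given. The members, gene lists, motif patterns and naming rule (up to 4 passing genes per list, and passing neighbours) were chosen with earlier results of these data known; FLO10, SKG1 and other genes below the threshold were named as neighbours or examples. Promoters were read from R64. Alternatives were 14 other settings of the fit.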

Additional observations from a re-analysis of the deposited data

How the results depend on the processing

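The rise of ABF1 passed under all 14 alternatives, with log2 differences from 0.81 to 1.09 and adjusted p from 0.00125 to 0.0459. Members called higher numbered 2 with a pseudocount of 5, with a minimum of 5 FPKM and with a robust fit, where SUM1 was added, and 3 with names in R64 only, where SIR4 was added too. Of 140 member values under alternatives 7 changed sign, none of them past the threshold: SIR1, ORC1 and NET1 after quantile normalization, NET1 without wild-type replicate 1 or deletion replicate 2, RAP1 without deletion replicate 2 and CDC14 without wild-type replicate 2. The cause was not tested. Over all genes, 178 were lower in the main test, 76 without the filter, 294 after quantile normalization, 111 with the replicate block and 297 with names in R64 only. Without wild-type replicate 1 or 2 there were 54 or 50 lower genes, and without deletion replicate 1 or 2 there were 47 or 83, with 190 or 184 higher against 430. Higher genes numbered at most 377 with a library left out. Deviations of same-numbered libraries correlated at -0.09 across genes. This gave no sign that the replicate numbers pair the libraries, but it cannot show how the libraries were prepared. With the block the member calls were 1 higher and 0 lower, as without it. Of genes named beside the members that passed in the main test, SMA2, SAG1, NQM1, GSC2 and TGL2 passed under all 14 alternatives, RPS22B under 12, BNS1 under 11, PPN2 and RPL15B under 8, RPL41A and RPL8A under 7, RPS9A under 6 and SLK19 under 4. Of named genes that missed, YKL111C and BAR1 passed under 3, TEM1, FLO10 and MF(ALPHA)1 under 2 and CDC5 under 1. Lists with no call at all kept 0 under every alternative, except glycolytic genes, of which 4 were higher without deletion replicate 1 and 3 lower without deletion replicate 2. Higher calls ran from 0 to 3 in the FEAR and mitotic exit list, from 0 to 6 among ribosomal protein genes (1 with the block, 5 with names in R64 only) and from 0 to 1 in the mating-type list. Lower calls ran from 0 to 1, from 0 to 3 (0 with the block) and from 1 to 2. With a library left out, the log2 difference in SIR3/ORC1 ran from -0.44 to -0.10 around -0.27, and that in NET1/CDC14 from 0.02 to 0.21 around 0.11. With FPKM + 1, RAP1/ABF1 went from -1.06 to -0.99. With 2 technical libraries per genotype and unknown depth, precision rests on the replicate spread alone.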
